A study of Mus musculus with 2 samples.

Results

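The genes described here are 9 developmental forkhead genes: Foxf1, Foxc2 and Foxl1, which lie together on chromosome 8; Foxq1, Foxf2 and Foxc1, which lie together on chromosome 13; and Foxl2, Foxd3 and Foxb1, which lie alone. They were chosen by name from RefSeq's gene records for GRCm38.p6 (mm10), and all 9 were found among the 21631 protein-coding gene records on chromosomes 1 to 19 and X. Micro-C, which ligates and sequences crosslinked chromatin fragments cut by micrococcal nuclease to map contacts at fine scale, had been applied to wild-type V6.5 cells, a pluripotent mouse embryonic stem cell line derived from a male embryo. There were 2 samples in 1 group (siControl), each given 50 nM of the transfection control siGLO for 48 hours. The authors deposited 1 list of 4982 chromatin loops for the group, without separate values for each sample, so there was no measure of spread and no test was made. Read depth is unknown, no other condition was analysed, and no RNA was measured, so whether the genes were transcribed in these cells, and the identity of the cells, could not be checked here.

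Forkhead genes encode transcription factors that share a winged-helix DNA-binding domain, the forkhead box. Most of these 9 are known for roles in the embryo after the pluripotent stage, in mesoderm, gut, eye, ovary or brain, while Foxd3 is also known for a role in pluripotent cells. A loop is a pair of intervals, called anchors, that touch each other more often than the chromatin around them. In mammalian cells many loops are held by cohesin, a ring-shaped protein complex, and end at sites bound by the protein CTCF. All coordinates are in mm10 and 1-based.

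In the full list, the 9 genes lay at loop anchors, and inside loops, in larger shares than protein-coding genes in general. Both shares depended on the setting. For 3 of the 9 genes (33.3%, exact Clopper-Pearson 95% interval 7.49 to 70.1%), namely Foxc2, Foxc1 and Foxl2, the first or last base of the gene record lay inside an anchor, against 9.04% of all protein-coding genes. Only Foxl2 did (11.1%, against 4.72%) when just loops scoring above the median for their bin width were used. With 5 kb bins alone, only Foxc2 did (11.1%, against 1.86%). A share that rests on 1 gene says little. A loop enclosed 6 of the 9 (66.7%, 29.9 to 92.5%), namely Foxf1, Foxl1, Foxq1, Foxc1, Foxd3 and Foxb1, against 32.6% of all genes; an enclosing loop is one that holds the whole gene between the outer edges of its anchors with no end of that gene at an anchor. At least 1 relation held for 8 of the 9 (88.9%, 51.8 to 99.7%), against 38.5% of all genes. That share also fell with the setting. Only Foxl2, Foxq1 and Foxc1 kept a relation when just loops scoring above the median for their bin width were used. Only Foxc2 and Foxl1 did with 5 kb bins alone. The share of all genes with either relation was not computed for these settings. The enclosed share was close to that of all genes when only loops scoring above the median for their bin width were kept (2 of 9, 22.2%, against 21.5%). It was also close with anchors widened by 10 kb (3 of 9, 33.3%, against 29.6%). There, Foxf1, Foxl1 and Foxc1 left the enclosed count by definition, as the wider anchors reached their ends. With that width, 6 of the 9 had an end at an anchor (66.7%, against 21.9%). Foxf2 alone among the 9 had neither relation, as did 61.5% of all genes and 48.6% of 35 other forkhead genes. An anchor lay within 500 kb of all 9 genes, but 87.4% of all genes had one, so that share says little about the 9. Taken singly, the intervals of the first 2 shares include the values of all genes. The interval for at least 1 relation does not. That share joins 2 relations that were planned singly, and Foxc2 and Foxl1 both count in it through 1 loop. Intervals cover counting error over these genes only. Genes of 1 cluster share loops, so the 9 are not independent of each other.

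**Figure D1:**
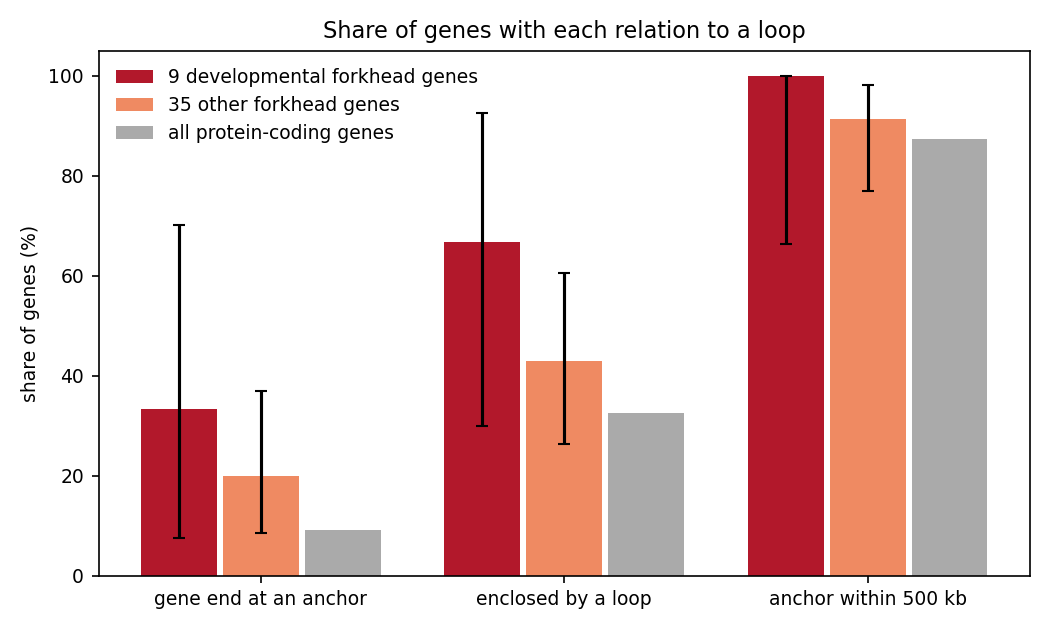
Share of genes (%) with a gene end at an anchor, enclosed by a loop, or with an anchor within 500 kb, for the 9 developmental forkhead genes, 35 other forkhead genes and all 21631 protein-coding genes. Error bars are exact 95% binomial intervals; the bars of the 9 genes at 33.3% and 66.7% stand above those of all genes at 9.04% and 32.6%, with intervals that are wide.

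In the full list, most of the 9 genes lay close to an anchor. The distance from the nearer gene end to the nearest anchor had a median of 5.82 kb over the 9 genes and 61.4 kb over all protein-coding genes, whose quartiles were 13.4 and 225.0 kb. It was 0 for Foxc2, Foxc1 and Foxl2, 1.85 kb for Foxf1, 5.82 kb for Foxf2, 7.68 kb for Foxl1 and 49.0 kb for Foxq1. Foxd3 at 141.0 kb and Foxb1 at 164.0 kb were farther away than the median gene. Gene ends within 5 kb of an anchor were found for 4 of the 9 (44.4%, against 16.2% of all genes) and within 10 kb for 6 of the 9 (66.7%, against 21.9%). The 3 others at that limit were Foxq1, Foxd3 and Foxb1. Foxc2 and Foxl1 had the same nearest anchor, as did Foxq1 and Foxf2. The nearest anchors of Foxf1, Foxc2 and Foxl1 were those of loops scoring below the median for their bin width (percentiles 49.0, 49.5 and 22.5). With 5 kb bins alone, no anchor lay within 500 kb of Foxq1, Foxf2 or Foxc1. The distances were not computed again for such settings, so the closeness is shown for the full list only.

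**Figure D2:**
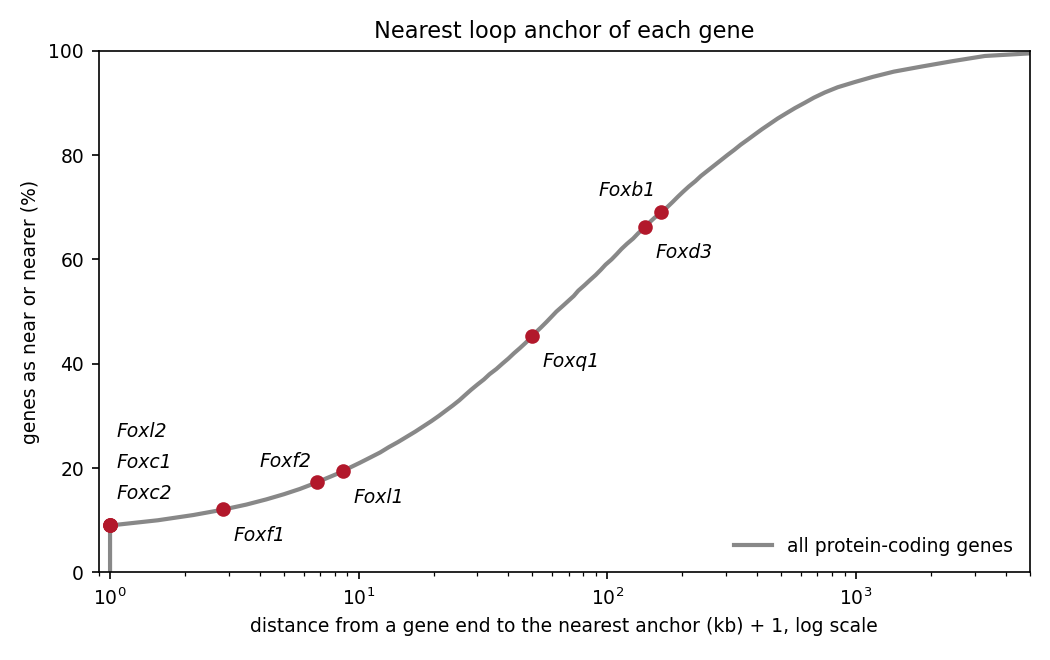
Cumulative share of all protein-coding genes (%) against the distance from a gene end to the nearest loop anchor (kb plus 1, log scale), with the 9 forkhead genes as points on the curve. Foxc2, Foxc1 and Foxl2 sit at a distance of 0, and Foxd3 and Foxb1 lie in the upper part of the curve, at 141.0 and 164.0 kb.

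The 9 genes also shared features of position. Every record was shorter than the lower quartile of protein-coding genes: lengths ran from 2373 bp (Foxd3) to 5591 bp (Foxf2), against a median of 17329 bp. For 8 of the 9, fewer protein-coding genes lay within 500 kb than the median of 16, from 3 around Foxq1, Foxf2 and Foxc1 to 12 around Foxc2 and Foxl1; Foxl2, with 17, was the exception. The number of loops with an anchor within 500 kb ranged from 3 (Foxb1) to 6 (Foxf1), with a median of 5, against a median of 3 and quartiles of 1 and 5 over all genes. Within 1000 kb the median was 5 in both the 9 genes and all genes. The window of 500 kb decided single loops: a loop counted for Foxf1 lay 484 kb from it, and the same loop was not counted for Foxc2, from which it lay 516 kb away. The comparison with all genes was not matched for gene density or gene length, and their part in these differences was not tested.

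The loops at or around the 9 genes were long against all loops but ordinary in peak score. There were 12 loops with an end of a member at an anchor or enclosing a member, with spans from 280 to 1050 kb and a median of 502.5 kb. The median span was 345 kb over the 3872 loops that had such a relation to any protein-coding gene, and 325 kb over all loops; 11 of the 12 were longer than the latter. Span is the distance between anchor midpoints, and a loop that encloses a gene is more often a long one. The peak score, a score of the loop caller with no unit, ran from 3.51 to 5.59 in the 12 loops, and 5 of them lay above the median of loops of their own pixel size, which is the bin width at which a loop was listed. The peak pixel, the value of the contact map at the loop, was above that median in 8 of the 12. Pixel size matters for scores: the medians over all loops were 4.88 at 5 kb, 4.0 at 10 kb and 3.87 at 25 kb. It matters for spans too, with medians of 190, 330 and 650 kb. Of the loops of 25 kb pixels, those of 475 and 400 kb were shorter than that median and that of 1050 kb was longer. Of the 12 loops, 1 was of 5 kb, 8 were of 10 kb and 3 of 25 kb pixels. No loop joined an end of one member to an end of another. No protein-coding gene end other than a member's lay at the anchors of 9 of the 12. The matching share over all loops was not counted, so whether that is unusual is unknown.

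In the full list, both clusters were divided between loops that ran in opposite directions. In each, the gene at the lower end was enclosed by 2 loops toward lower coordinates, 1 or more loops from anchors farther up in the cluster ran toward higher coordinates, and no loop spanned the whole cluster. The Foxf1/Foxc2/Foxl1 cluster covers 46.3 kb and the Foxq1/Foxf2/Foxc1 cluster 252.0 kb, and the pattern was seen at both sizes. A loop spanned 34.4% of windows as long as the first cluster, laid from the first base of each protein-coding gene, and 17.6% of windows as long as the second, so the lack of a spanning loop is the usual state at either size. Loops leaving to both sides from separate anchors, the last anchor of the lower loops lying before the first of the upper loops, were found in 0.666% of windows of the first length and 9.43% of windows of the second. That description of the clusters was chosen after their loops had been seen. It also depended on the setting. On chromosome 8 the loops that form it had peak scores at percentiles 49.0, 49.5 and 22.5 of their pixel size. None of them was kept among the loops scoring above the median for their bin width. The chromosome 13 cluster then still had loops to both sides. With 5 kb pixels alone, neither cluster had loops to both sides.

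**Figure D3:**
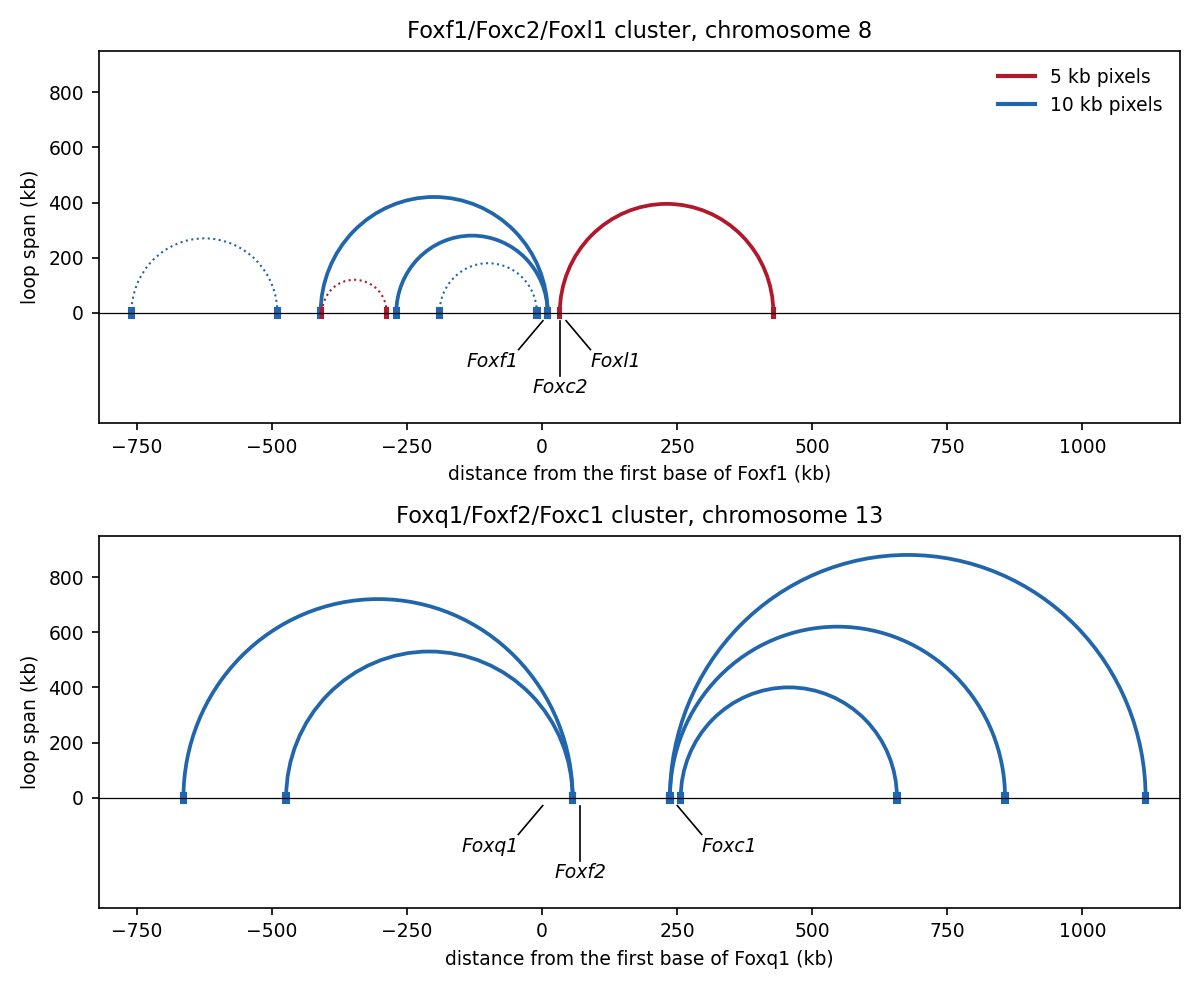
Loops around the chromosome 8 cluster (upper panel) and the chromosome 13 cluster (lower panel), drawn as arcs whose height is the span (kb) against the distance from the first base of Foxf1 or Foxq1 (kb). Boxes on the line are anchors, colour is pixel size, solid arcs have a member's end at an anchor or enclose a member, and dotted arcs only have an anchor within 500 kb; in both panels the solid arcs part to the left and right within the cluster.

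Foxf1, a regulator of the mesenchyme of lung and gut and of blood vessels, lies at chr8:121084386-121088154 (GeneID 15227). Anchors flanked it closely on either side. On its upper side, 1.85 kb beyond the gene, an anchor at chr8:121090001-121100000, which holds the lower end of Mthfsd, was joined to a site 420 kb lower, at chr8:120670001-120680000 with an end of Cox4i1, and to one 280 kb lower, at chr8:120810001-120820000 with no gene. Peak scores of these loops were 3.97 and 3.98, at percentiles 49.0 and 49.5 of 10 kb loops. Their peak pixels, the value of the contact map at the loop, were 5.67 and 8.54, at percentiles 22.2 and 83.1, the higher value being that of the shorter loop. Both enclosed Foxf1 and the lncRNA Fendrr, a non-coding RNA gene 1.28 kb from Foxf1 that is known from the lateral mesoderm. On the lower side, 4.39 kb before the gene, an anchor at chr8:121070001-121080000 lay inside the Fendrr record and was joined to a site 180 kb lower (peak score 3.51). That loop stopped short of Foxf1.

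Foxc2, a regulator of lymphatic vessels and mesoderm, lies at chr8:121116171-121118895 (GeneID 14234), on the far side of Mthfsd. Its record of 2725 bp lay wholly within an anchor of 5 kb, chr8:121115001-121120000, so the start of the gene was in the anchor whichever end it is. From there 1 loop ran 395 kb toward higher coordinates, to chr8:121510001-121515000, which held no gene record. Its peak score of 4.06 was low for its pixel size (percentile 22.5) and its peak pixel of 4.92 was in the middle (50.6). Foxl1, a gene of the gut mesenchyme, at chr8:121127685-121130644 (GeneID 14241), lay 7.68 kb inside the same loop. Foxc2 and Foxl1 were the only protein-coding genes in it. The lower loops and the upper loop were separated by 15 kb, which holds part of the body of Mthfsd, so Foxf1 on one side and Foxc2 and Foxl1 on the other, 28.0 kb apart, were in different loops.

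Foxq1, known from hair and the stomach lining, lies at chr13:31558170-31560976 (GeneID 15220), and the nearest protein-coding record on its lower side, Exoc2, was 584 kb away. An anchor at chr13:31610001-31620000, 49.0 kb above the gene, was joined to chr13:30890001-30900000 in the body of Exoc2, 720 kb away, and to chr13:31080001-31090000 with the lncRNA Gm35302, 530 kb away. These loops had peak scores of 5.48 and 5.59 (percentiles 88.6 and 89.6 of 10 kb loops) and peak pixels of 10.1 and 11 (percentiles 94.9 and 97.6). They were the highest scores among the 12 loops at or around members.

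Foxf2, a regulator of gut and palate mesenchyme and of brain pericytes, lies at chr13:31625816-31631406 (GeneID 14238), just outside those loops. The same anchor ended 5.82 kb before it, and the next anchor lay 159.0 kb beyond it. Foxf2 was thus in a stretch of 170.0 kb between the lower and the upper loops, which held no other protein-coding gene. Foxc1, a regulator of the eye, skeleton and blood vessels, lies beyond that stretch and the anchor that ends it, at chr13:31806646-31810635 (GeneID 17300). It had 3 loops, all toward higher coordinates. From chr13:31790001-31800000, 6.65 kb before the gene, loops of 620 kb (peak score 4.56, percentile 71.5) and 880 kb (5.31, percentile 86.8) enclosed it together with Gmds, a gene of sugar metabolism. From chr13:31810001-31820000, which holds the last 635 bases of Foxc1 and the lower end of Gmds, a loop of 400 kb (3.79, percentile 40.5) reached the body of Gmds. The start of Foxc1 lay 3.35 kb outside that anchor. Peak pixels of the 3 loops were at percentiles 92.6, 80.0 and 79.9.

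**Figure D4:**
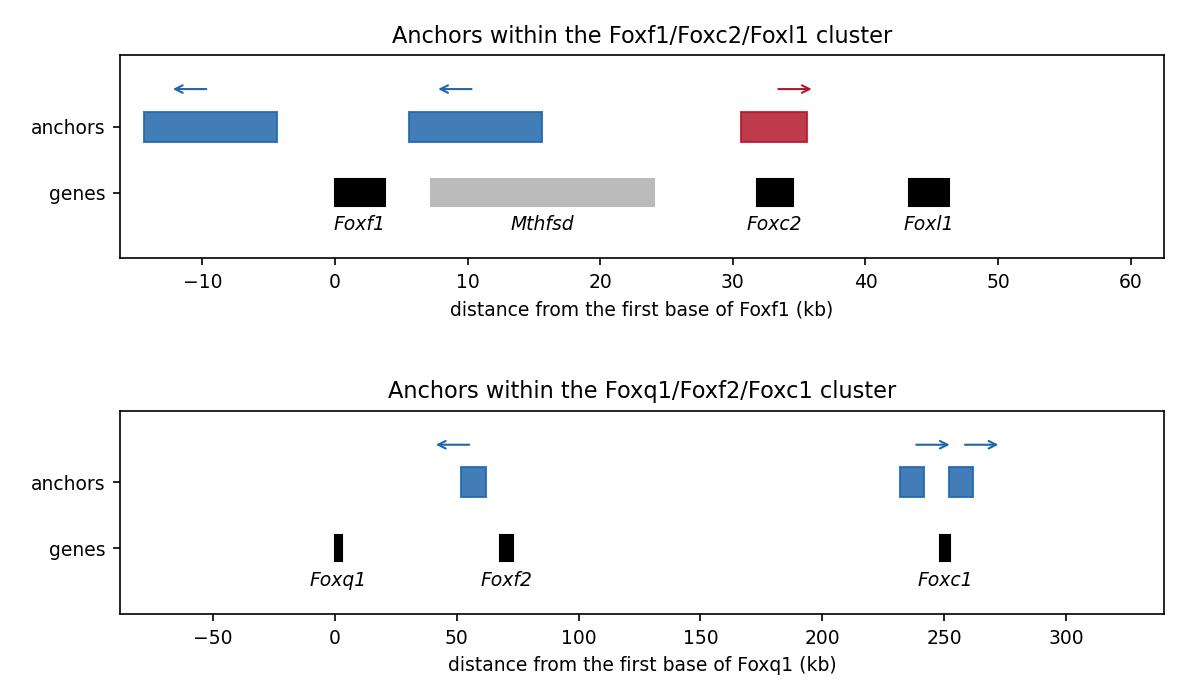
Anchors and genes inside the 2 clusters to scale, as distance from the first base of Foxf1 or Foxq1 (kb). Coloured boxes are anchors (red 5 kb, blue 10 kb pixels) with arrows toward the other anchor of their loops, black boxes are members and the grey box is Mthfsd; Foxc2 lies wholly inside an anchor, Foxc1 partly, and Foxf2 between anchors of opposite direction.

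Of the 9 genes, 4 matched an entry in the RefSeq promoter table (GRCm38.p6), which gives 250 bases before to 50 after a gene's start: Foxf2, Foxc1, Foxl2 and Foxd3. All are on the + strand with the start at the first base of the record. The promoters of Foxf2 and Foxc1 (chr13:31625566-31625865 and chr13:31806396-31806695, + strand) lie 5.57 and 3.31 kb from the nearest anchor and that of Foxl2 (chr9:98955357-98955656, + strand) lies wholly inside one. These 3 are shown for that difference, 5' to 3', with every CG dinucleotide in capitals.
Foxf2: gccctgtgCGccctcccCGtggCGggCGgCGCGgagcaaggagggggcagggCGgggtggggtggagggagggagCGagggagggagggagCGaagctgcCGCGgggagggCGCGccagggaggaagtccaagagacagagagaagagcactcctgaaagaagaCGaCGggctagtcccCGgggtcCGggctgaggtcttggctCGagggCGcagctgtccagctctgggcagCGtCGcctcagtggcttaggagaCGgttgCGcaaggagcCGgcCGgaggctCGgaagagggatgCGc
Foxc1: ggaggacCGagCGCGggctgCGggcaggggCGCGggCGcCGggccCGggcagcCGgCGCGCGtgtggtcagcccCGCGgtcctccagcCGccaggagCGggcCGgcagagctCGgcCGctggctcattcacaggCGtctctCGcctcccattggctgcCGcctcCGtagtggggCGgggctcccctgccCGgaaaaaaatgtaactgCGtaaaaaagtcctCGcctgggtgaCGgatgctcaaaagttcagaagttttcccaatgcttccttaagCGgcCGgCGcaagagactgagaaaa
Foxl2: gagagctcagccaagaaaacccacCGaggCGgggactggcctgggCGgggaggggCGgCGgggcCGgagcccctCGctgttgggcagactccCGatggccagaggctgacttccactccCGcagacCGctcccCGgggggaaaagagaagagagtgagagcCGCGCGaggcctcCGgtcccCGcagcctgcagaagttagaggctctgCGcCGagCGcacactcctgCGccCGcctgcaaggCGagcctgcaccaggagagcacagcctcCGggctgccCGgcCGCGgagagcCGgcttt
The CG dinucleotides numbered 27 in Foxf2, 32 in Foxc1 and 27 in Foxl2, and 25 in Foxd3, against a median of 7 over all 32851 promoters of the table, of which 15.5%, 9.52%, 15.5% and 18.4% had as many. The count in Foxl2, inside an anchor, equalled that in Foxf2, outside. As only the promoter of Foxl2 lay inside an anchor, whether CG density differs between such promoters could not be judged. None of the 4 held the TATA box TATAAA (in 13.6% of all promoters), the forkhead recognition core TGTTTAC (3.65%) or the CTCF core motif (0.0365%) on either strand. The CTCF motif is rare in windows of 300 bases, and the others are also in a minority of promoters. The lack of any of them in 4 promoters thus says little.

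The clusters were alike in the number of loops nearby and in the number of genes at anchors. Within 500 kb of a member lay 6 loops at the Foxf1/Foxc2/Foxl1 cluster and 5 at the Foxq1/Foxf2/Foxc1 cluster, and 1 gene of each had an end at an anchor. The order of the loop counts turned with the setting: they were 4 and 5 within 250 kb, 8 and 5 within 1000 kb, and 1 and 4 when only the higher-scoring loops, above the median for their bin width, were kept. The loops themselves differed in span and score, with ranges that overlapped in both. Loops with an anchor in the first cluster spanned 280 to 420 kb and scored 3.97 to 4.06, and those of the second spanned 400 to 880 kb and scored 3.79 to 5.59. Pixel sizes were not the same. In the first cluster the score of 4.06 was that of a loop of 5 kb pixels, at percentile 22.5, and the others, of 10 kb, were at 49.0 and 49.5. In the second all were of 10 kb pixels, at percentiles 40.5 to 89.6. The spaces between genes were 28.0 and 8.79 kb in the first cluster, and 64.8 and 175.0 kb in the second.

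Foxl2, a regulator of ovarian granulosa cells and of the eyelid, was the member with the longest loop at a gene end. The record, chr9:98955607-98958126 (GeneID 26927), lay wholly in an anchor of 10 kb, chr9:98950001-98960000, which also held the start of the antisense lncRNA Foxl2os. The starts of the 2 genes are 297 bases apart on opposite strands, and their promoter windows share 204 bases, so the anchor cannot be assigned to either. The loop ran 910 kb toward higher coordinates, over 14 protein-coding records with Foxl2 itself, to chr9:99860001-99870000, which held no gene record. Its peak score was 5.36 (percentile 87.5 of 10 kb loops) and its peak pixel 4.18 (percentile 2.17), a high rank on the first measure and a low one on the second. The nearest other anchors were 85.6 kb below, at the end of Prr23a3, and 102.0 kb above. Foxl2 was the single one of the 4 genes with a promoter entry whose start lay in an anchor, against 5.2% of the 17274 protein-coding genes with an entry.

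Foxd3 and Foxb1 lay well inside loops, away from anchors. Foxd3, a gene of the neural crest and of pluripotent cells, at chr4:99656299-99658671 (GeneID 15221), was enclosed by 2 overlapping loops of 25 kb pixels. The first spanned 475 kb, from chr4:99325001-99350000 with the lncRNAs Gm35379 and Gm35537 to chr4:99800001-99825000 in the body of Itgb3bp (peak score 3.75, percentile 44.3). The second spanned 1050 kb, from chr4:99400001-99425000 to chr4:100450001-100475000 with the pseudogene Gm18288 (3.53, percentile 34.2). The gene lay 306 and 141.0 kb from the anchors of the first, and 231 and 791 kb from those of the second. Foxb1, a gene of the midbrain and hypothalamus, at chr9:69757710-69760940 (GeneID 64290), was enclosed by 1 loop of 400 kb (chr9:69525001-69550000 to chr9:69925001-69950000, 25 kb pixels, peak score 3.51, percentile 31.9). It lay 208 and 164.0 kb from the anchors and was the only protein-coding gene in the loop. The lncRNA B230323A14Rik starts or ends 0.206 kb from it and lay in the same loop. With loops of 5 and 10 kb pixels alone, neither Foxd3 nor Foxb1 was enclosed, and 4 of the 9 genes were (25.8% of all genes).

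**Figure D5:**
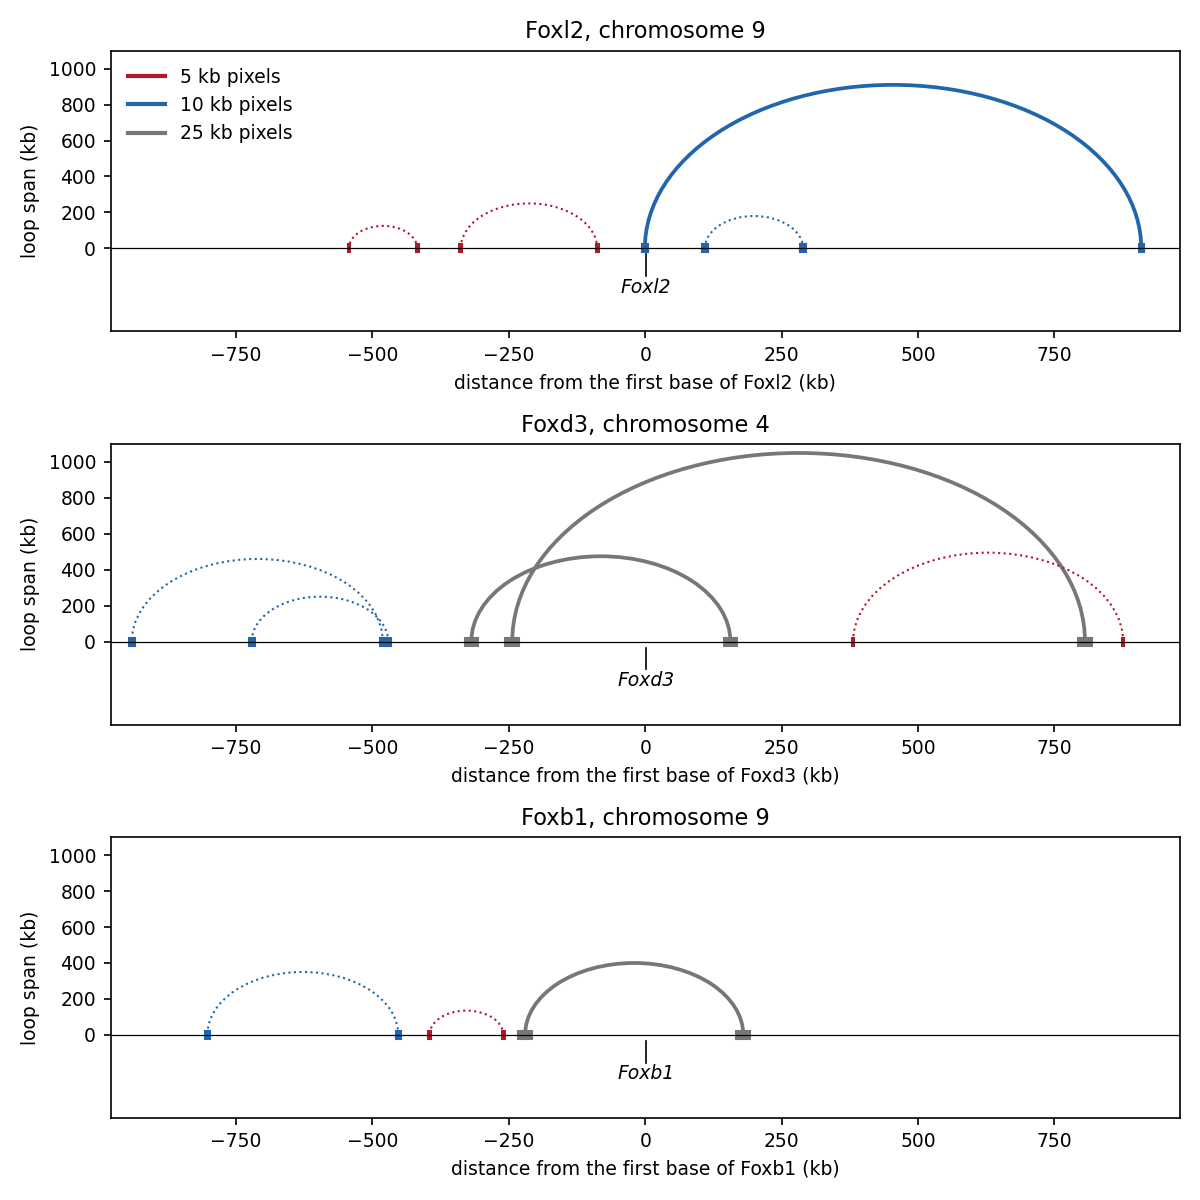
Loops around Foxl2, Foxd3 and Foxb1, drawn as arcs whose height is the span (kb) against the distance from the first base of each gene (kb). Colour is pixel size and solid arcs have the gene's end at an anchor or enclose the gene; the solid arc of Foxl2 starts at the gene and spans 910 kb, while the solid arcs of Foxd3 and Foxb1 pass over the gene.

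Other loops within 500 kb of these 3 genes had anchors at neighbouring genes and did not touch the forkhead gene. On chromosome 4, a loop of 460 kb (peak score 4.18) ran from an anchor with an end of Patj. On chromosome 9, a loop of 350 kb (4.01) lay within Rora, with the lncRNA Gm46153 at its upper anchor, and a loop of 135 kb (3.32) ran from the lncRNA Gm15511, also within Rora. Above Foxl2, a loop of 180 kb (3.28) joined the bodies of Pik3cb and Cep70. Near Foxf1, the highest score of all 23 loops with any relation to a member, 7.18, was that of a loop of 120 kb around Irf8, a blood-cell regulator, to the lncRNA Gm33199, and a loop of 270 kb (3.84) joined the lncRNAs Gm32968 and Gm10614.

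Among the 35 other forkhead genes, all of which were found in the gene table, an anchor held an end of 7 (20%, exact 95% interval 8.44 to 36.9%), against 9.04% of all genes. Foxa1, with 3 loops, and Foxa2, with 2, both regulators of endoderm, held the highest scores, up to 8.57 and 10.1. Foxd1, of kidney stroma, had 1 loop of 150 kb (4.02), Foxo1, of insulin signalling, 1 of 1200 kb (3.96), Foxp1 1 of 475 kb from inside its record to its upper end (3.63), and Foxr2 1 of 210 kb (3.84). A loop enclosed 15 of the 35 (42.9%, 26.3 to 60.6%), against 32.6% of all genes, a value inside that interval. The intervals of the 9 and of the 35 genes overlapped for both relations. The median distance to the nearest anchor was 18.9 kb in the 35 genes.

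The share of the 9 genes at anchors rested on few loops. It was 1 of 9 (Foxl2, against 4.72% of all genes) when only the higher-scoring loops were kept, and 1 of 9 (Foxc2, against 1.86%) with 5 kb pixels alone. The count of enclosed genes was 2 (Foxq1 and Foxc1, against 21.5%) and 1 (Foxl1, against 7.42%) under the same settings.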

How the data were processed

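Per the labels, Micro-C libraries were made from 2 samples of 1 group. Juicer 1.5.6 and the build mm10 are named in the submitters' processing notes. What called the loops, at which thresholds, from which normalization and whether from pooled samples was not given in the sources used here. Without a header in the deposited list, its peak score and regional score (each a score of the caller), a fraction between 0 and 1, and the signal of the peak pixel were identified from their position and values. The authors' deposited score and signal served to describe and rank loops inside this list alone, and the deposited fraction was not used.

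Anchors were made 1-based and compared with gene records of the RefSeq table, which gives no strand, so either end of a record counted as a gene end. Counts were set beside the same counts over all protein-coding genes. No chance test and no p-value was made. The script was tested on simulated loops. Percentiles are within a pixel size. Intervals are exact Clopper-Pearson 95% intervals (scipy 1.17.1), with numpy 2.4.6, pandas 2.3.3 and matplotlib 3.10.9 on Python 3.11.15. All 9 genes are named, with genes at the ends of their loops, their neighbours, and other forkhead genes at anchors, except for items not reported here. The genes and lists were chosen with earlier results of these data known. The alternatives changed the pixel size, peak score, anchor width, gene end, window and span. Sequences are RefSeq's, and protein sequences were not used here.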

Additional observations from a re-analysis of the deposited data

How the results depend on the processing

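No paired analysis was possible because both replicates share 1 loop list, and for that reason neither could be left out. Of 47 alternative values of the comparisons, 27 stayed within 1.5 times the main value or, for differences between clusters, equal to it, 18 moved and 2 reversed. With 5 kb pixels alone, genes at an anchor fell from 3 to 1 (11.1%, against 1.86% of all genes), enclosed genes from 6 to 1 (11.1%, against 7.42%), the median of loops per gene from 5 to 1 (all genes 0) and other forkhead genes at an anchor from 7 to 2 (5.71%, against 1.86%), and the chromosome 8 cluster exceeded the chromosome 13 cluster by 2 loops and by 1 gene at an anchor (main 1 and 0). With 5 and 10 kb pixels, 4 of 35 other forkhead genes were at an anchor (11.4%, against 7.16% of all genes). With only the higher-scoring loops, above the median for their bin width, these values were 1 gene at an anchor (11.1%, against 4.72% of all genes), 2 enclosed (22.2%, against 21.5%), 2 loops per gene (all genes 1) and 4 other forkhead genes (11.4%, against 4.72%), and the difference between clusters reversed to -3 loops. Anchors widened by 5 kb gave a difference of 1 gene at an anchor between the clusters. Anchors widened by 10 kb gave 6 genes at an anchor (66.7%, against 21.9% of all genes), 3 enclosed (33.3%, against 29.6%), 11 other forkhead genes at an anchor (31.4%, against 21.9%) and again a difference of 1 gene. With the transcription start alone, 1 of 4 genes was at an anchor; the other 5 have no entry, so fewer genes were counted and the clusters could not be compared. The difference in loops reversed to -1 within 250 kb and was 3 within 1000 kb. Filters and narrower windows leave fewer loops and wider anchors reach more gene ends; what reversed the differences was not tested. Depth is unknown, so a loop that is not listed is not shown to be absent.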
